A study of Mus musculus with 4 samples.

Results

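Stromal and endothelial cells surround the alveolar epithelium and send it secreted and matrix signals. A set of 10 genes of this kind was followed in mouse lung: the fibroblast growth factors Fgf7 and Fgf10, the hepatocyte growth factor gene Hgf, the Wnt ligands Wnt2 and Wnt5a, the matrix ligand gene Npnt, the bone morphogenetic protein gene Bmp4, its secreted antagonist Grem1, the ErbB ligand gene Nrg1 and the Wnt enhancer Rspo3. The genes were chosen by symbol, all 10 of 10 were found among the 31054 features of the count matrices, and each was measured as raw counts of unique molecular identifiers (UMIs, tags that mark single captured RNA molecules). The lungs came from male C57BL/6 mice, 19 months old, given for 1 month either BPTES, a small-molecule inhibitor of the glutaminase GLS1, or its vehicle DMSO. Each group had 2 libraries, and each library mixed 20000 sorted CD45-negative with 9000 CD45-positive cells, so that the share of leukocytes was set by the sort. The labels give neither the number of mice behind a library nor a link between libraries, so p-values measure only the spread between these libraries.

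In the alveolus, type 2 (AT2) cells make surfactant and renew the epithelium, and the thin type 1 (AT1) cells form the gas exchange surface. FGF7 and FGF10 act through the receptor FGFR2 on epithelium, HGF through MET, nephronectin (the product of Npnt) through integrin α8β1, and neuregulin 1 through ERBB3 with ERBB2. WNT2 is a ligand of the β-catenin branch of Wnt signalling, which maintains AT2 stem cells, whereas WNT5A is mostly known for β-catenin-independent signalling. R-spondins raise the number of Wnt receptors at the cell surface through LGR4 and LGR5, and BMP4 restrains AT2 proliferation.

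The 4 libraries held 16440 to 21986 barcodes, and 63895 cells were kept, with a median of 13932 to 15794 UMIs per cell in a library. Any pair of libraries shared 75 to 121 barcodes. Cells fell into 43 clusters, of which 38 were named from marker genes into 29 classes, each called "-like" since only RNA was read, and 22 classes had at least 20 cells in every library. The 5 unnamed clusters held 11.6% of the cells. The members were compared over the 10 mesenchymal and endothelial classes among the 22. Mesothelial-like cells were too few for this, with 2 and 15 under BPTES against 225 and 70 under DMSO. Levels are a class's UMIs of a gene scaled to a fixed total of its summed UMIs (counts per 1e+06, CPM), given as BPTES replicates 1 and 2 and then DMSO replicates 1 and 2. Because cells were captured at the 3′ end, CPM values are compared between classes and not between genes.

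Free RNA sets a floor for such levels. In B-like cells, which should lack these stromal transcripts, the median level was 0.783 CPM for Fgf7, 1.17 CPM for Fgf10, 1.15 CPM for Hgf and 12.4 CPM for Npnt. Against this floor, Hgf was above every B-like library in 16 of 22 classes, Npnt and Bmp4 in 10, Nrg1 in 9, Rspo3 in 7, Fgf10 and Wnt5a in 6, Fgf7 in 5 and Wnt2 in 3. Grem1 was above it in 0 of 22 classes.

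**Figure D1:**
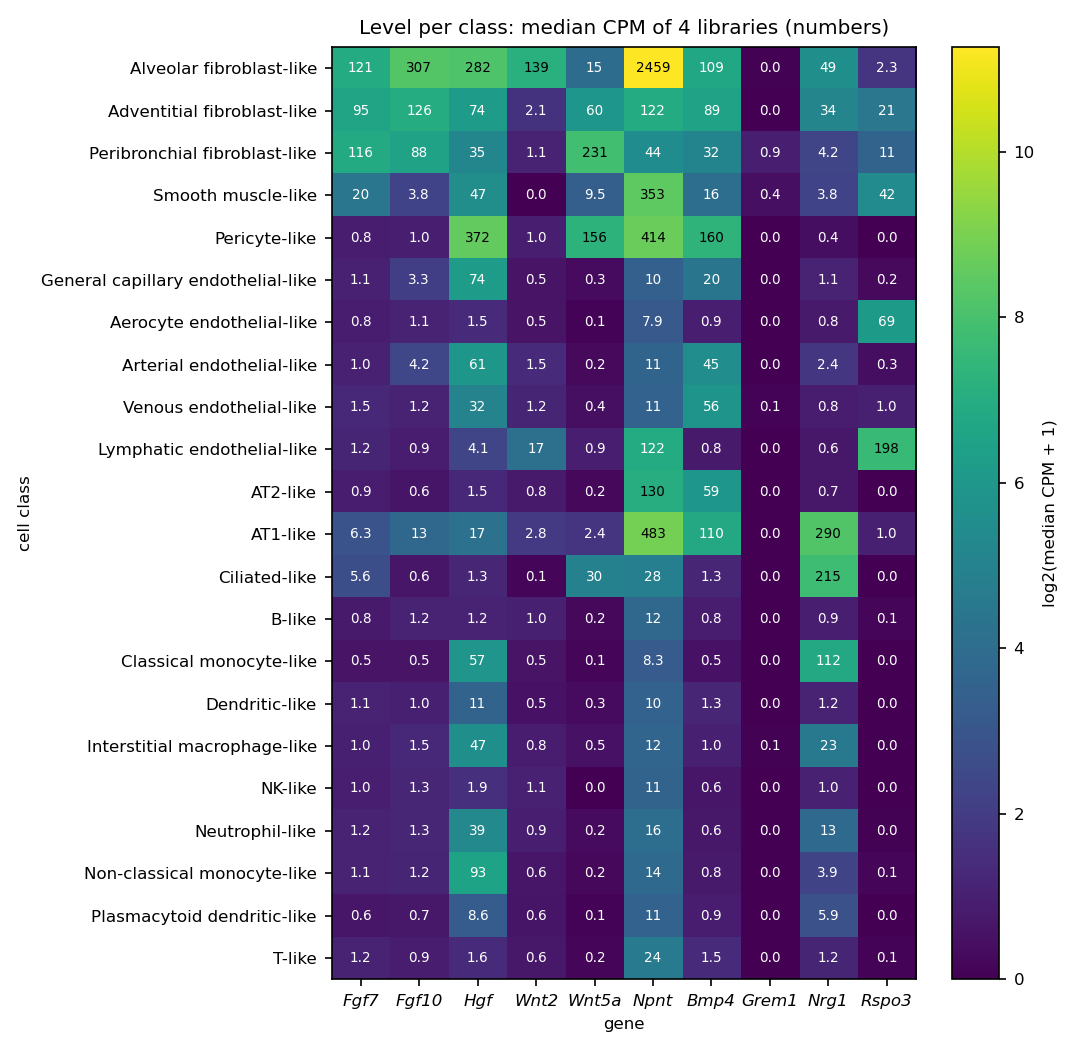
Median level over the 4 libraries of each gene (columns) in each of the 22 classes with at least 20 cells per library (rows), printed in CPM and coloured by log2(CPM + 1). The alveolar fibroblast-like row is the highest for Fgf7, Fgf10, Wnt2 and Npnt, pericyte-like for Hgf and Bmp4, peribronchial fibroblast-like for Wnt5a, AT1-like for Nrg1 and lymphatic endothelial-like for Rspo3.

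In mm10 (GENCODE vM21) Fgf7 lies at chr2:126034658-126091185 and Grem1 at chr2:113746164-113758646, Npnt at chr3:132881745-132950291, Hgf at chr5:16553495-16620152 and Wnt2 at chr6:17988940-18030585. Nrg1 lies at chr8:31814551-32884029, Rspo3 at chr10:29452416-29535867, Fgf10 at chr13:118669791-118792115, Wnt5a at chr14:28504750-28527448 and Bmp4 at chr14:46383520-46390669.

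The promoters of Bmp4 and Hgf are shown because these were the members that stood lower together in the large-vessel and capillary endothelium under BPTES. Both windows are from RefSeq (GRCm38.p6) and run from 250 bases before to 50 bases after the gene start. Capitals mark the GC box GGGCGG on either strand, a motif that 35.6% of 32817 RefSeq mouse promoters of this length hold. The TATA box TATAAA was searched the same way, is held by 13.6% of those promoters, and does not overlap the other motif.
Bmp4 (chr14:46390620-46390919, minus strand): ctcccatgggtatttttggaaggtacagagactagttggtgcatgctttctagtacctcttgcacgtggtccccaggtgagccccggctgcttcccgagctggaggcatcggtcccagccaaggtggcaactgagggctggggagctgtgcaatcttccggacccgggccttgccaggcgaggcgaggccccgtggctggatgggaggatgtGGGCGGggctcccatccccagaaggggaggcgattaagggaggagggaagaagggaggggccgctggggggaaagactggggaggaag
Hgf (chr5:16553245-16553544, plus strand): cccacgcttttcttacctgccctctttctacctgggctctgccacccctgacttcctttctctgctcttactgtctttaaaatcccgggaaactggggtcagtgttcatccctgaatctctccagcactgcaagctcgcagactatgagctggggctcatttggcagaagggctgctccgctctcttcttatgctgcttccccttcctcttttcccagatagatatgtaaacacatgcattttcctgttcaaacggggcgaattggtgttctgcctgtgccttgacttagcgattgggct
The Bmp4 window held 1 GC box at 64% G and C, and the Hgf window held 0 at 51.3%. Neither window held TATAAA. RefSeq promoters were matched for 7 of the 10 genes.

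Alveolar fibroblast-like cells, the cells of the alveolar wall that hold lipid and lay down matrix, carried most of the RNA of several members. Of all UMIs in kept cells they held 92.8% for Wnt2, 91.2% for Npnt, 85.2% for Fgf10, 74.8% for Fgf7, 63.4% for Hgf and 57.8% for Bmp4. Their part was smaller for Nrg1 (44.3%), Wnt5a (27.2%) and Rspo3 (5.94%). Such shares of UMIs depend on the sorted mix, on how well each cell type left the tissue and on UMIs per cell. They are shares of the kept cells and not of the supply in the tissue. In alveolar fibroblast-like cells Npnt was at 2497, 2315, 2490 and 2428 CPM, and the 4 libraries did not overlap those of any other class. Its next classes were AT1-like (median 483 CPM), pericyte-like (414 CPM) and smooth muscle-like cells (353 CPM), whose ranges overlapped in that order. Wnt2 was at 124, 117, 174 and 154 CPM there, and lymphatic endothelial-like cells came second at a median of 17 CPM and adventitial fibroblast-like cells held 2.09 CPM. Fgf10 was at 311, 228, 302 and 342 CPM there, above adventitial (median 126 CPM) and peribronchial fibroblast-like cells (88.4 CPM), which overlapped each other.

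Fgf7 was closer in level among the fibroblasts. Its median was 121 CPM in alveolar, 116 CPM in peribronchial and 94.6 CPM in adventitial fibroblast-like cells. The peribronchial range overlapped each of the others, whereas all alveolar libraries were above all adventitial ones. The median was 20.4 CPM in smooth muscle-like cells. In UMIs per cell, adventitial fibroblast-like cells were the highest for Fgf7. Single cells were compared after each was thinned to 3000 UMIs, which left out 1035 to 1547 shallower cells per library. An alveolar fibroblast-like cell then held a UMI of a median of 3 of the 10 genes in every library, and 52.2% to 55.1% of these cells held 3 or more. Npnt was seen in a median of 97.2% of thinned cells (99.6% unthinned), Fgf10 in 41.6% (78.8%), Hgf in 32.2% (77.6%), Wnt2 in 30.0% (70.2%) and Fgf7 in 27.3% (77.1%). B-like cells gave 3.70% for Npnt and at most 0.564% for any of Fgf7, Fgf10, Hgf or Wnt2 in a library. The median depth behind these shares was 21192 UMIs in alveolar fibroblast-like and 12524 UMIs in B-like cells.

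The alveolar fibroblast-like class consisted of 2 clusters that differed in these genes. Cluster 1, led by Slc7a10 and Scube2, held Wnt2 at 190, 187, 225 and 204 CPM and Wnt5a at 7.72, 8.07, 6.25 and 7.46 CPM. Cluster 2, led by Mfap5, Mgp and Timp1, held Wnt2 at 56.1, 43.9, 65.3 and 65.1 CPM and Wnt5a at 25.3, 27.4, 27.0 and 24.7 CPM. So all 4 libraries had more Wnt2 and less Wnt5a in cluster 1. Npnt was higher in cluster 1 as well, at 2796 to 3040 CPM against 1651 to 1928 CPM. None of the 10 genes had been used to build the clusters, but other genes of the same cells had, so these values are a description.

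Pericyte-like cells, which wrap capillaries, had the highest Hgf of the compared classes, at 391, 362, 352 and 382 CPM, above the 227 to 308 CPM of alveolar fibroblast-like cells. With doublets kept, and in UMIs per cell, the alveolar class was the highest. Leukocytes held Hgf too. Its median was 92.8 CPM in non-classical and 57.5 CPM in classical monocyte-like cells, 47.5 CPM in interstitial macrophage-like and 38.8 CPM in neutrophil-like cells. Pericyte-like cells also led for Bmp4 (median 160 CPM), although AT1-like cells (110 CPM) overlapped them and the alveolar class led with doublets kept. In UMIs per cell, AT2-like cells, which were deeper, were the highest for Bmp4. The pericyte-like class was second for Wnt5a (156 CPM). Fgf7, Fgf10 and Wnt2 were at or below 1.00 CPM there in the median, and none of the 3 was above every B-like library.

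Wnt5a had another order of classes. Peribronchial fibroblast-like cells, marked by Hhip and Aspn, held 243, 239, 185 and 223 CPM, and 40.2% of thinned cells had a UMI. Adventitial fibroblast-like cells followed the pericyte-like cells at a median of 59.8 CPM. The share of all Wnt5a UMIs in kept cells was 27.6% in adventitial, 27.2% in alveolar and 21.6% in peribronchial fibroblast-like cells, although the level in the alveolar class was 15 CPM. The order turned between groups. Alveolar fibroblast-like cells held 37.0% and 31.4% under BPTES and 17.9% and 26.6% under DMSO, and adventitial fibroblast-like cells held 16.6% and 21.9% against 36.2% and 31.7%. Mesothelial-like cells held 24.2% in DMSO replicate 1 and at most 1.87% in any other library. Grem1 gave 51 UMIs in all kept cells, 18, 5, 20 and 8 per library. Its highest class was peribronchial fibroblast-like at a median of 0.905 CPM, so that levels of this antagonist could not be compared at this depth.

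The adventitial fibroblast-like class also had 2 unlike clusters. Cluster 16, led by Scara5, Ccl11 and Dcn, held Rspo3 at 23.6 to 59.2 CPM, Wnt5a at 53.7 to 91.9 CPM and Bmp4 at 47.9 to 68.5 CPM. Cluster 25, led by Adh7, Smoc2 and Lamc3, held Rspo3 at 0 to 0.313 CPM, Wnt5a at 21.6 to 32.7 CPM, Npnt at 256 to 331 CPM, Bmp4 at 145 to 191 CPM and Nrg1 at 70.0 to 107 CPM. Nrg1 in cluster 16 was at 5.96 to 18.2 CPM. Cluster 25 had the alveolar fibroblast markers as its second best match.

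**Figure D2:**
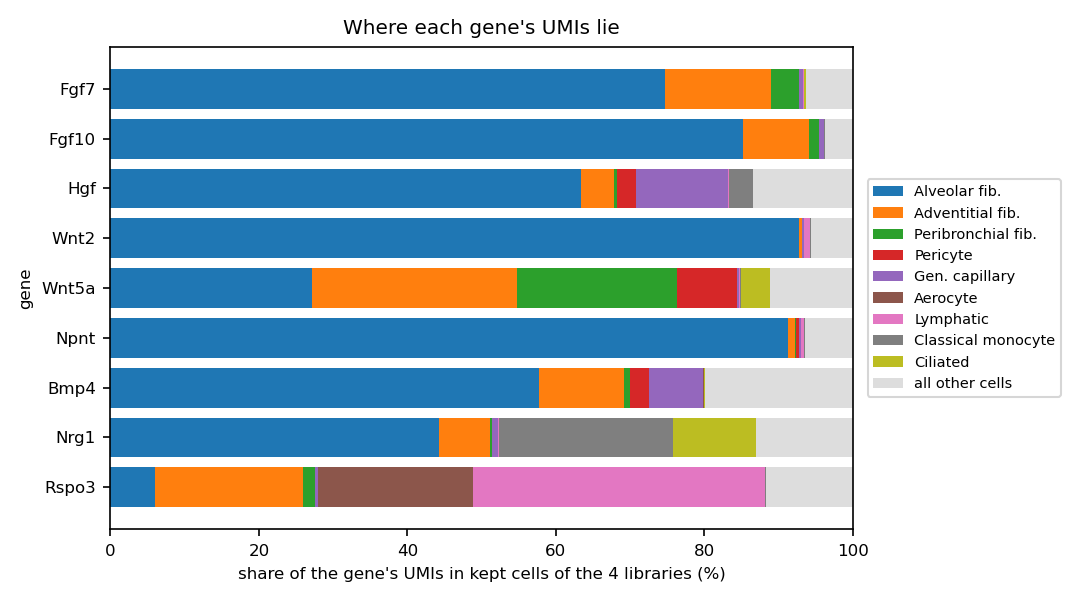
Share of each gene's UMIs that lay in 9 classes and in all other kept cells, over the 4 libraries together (bars add to 100%; Grem1, with 51 UMIs, is left out). Alveolar fibroblast-like cells hold more than any other shown class for every gene except Wnt5a and Rspo3.

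Endothelial cells made a narrower set. Hgf was found in general capillary (median 73.9 CPM), arterial (60.6 CPM) and venous (31.6 CPM) endothelial-like cells and was at a median of 1.53 CPM in aerocytes, the large capillary cells that face AT1 cells. Bmp4 was likewise found in venous (56.0 CPM), arterial (44.5 CPM) and general capillary cells (19.7 CPM). Rspo3 was found in other endothelial classes and in part of the mesenchyme. Lymphatic endothelial-like cells held 172, 166, 240.0 and 225 CPM, aerocyte endothelial-like cells 75.4, 62.5, 80.9 and 59.3 CPM, and general capillary cells 0 to 0.322 CPM. Smooth muscle-like cells, at a median of 42.3 CPM, overlapped the aerocytes. Of all Rspo3 UMIs lymphatic cells carried 39.4%, aerocytes 20.8% and adventitial fibroblast-like cells 19.9%. Mesenchymal classes together, mesothelial-like cells included, held 37.2%, with a range of 19.3% to 53.6% over the libraries. Mesothelial-like cells alone held 18.9% in DMSO replicate 1 and at most 0.213% in any other library.

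Nrg1 had its highest levels in epithelial classes, followed by a leukocyte class. AT1-like cells held 302, 319.6, 249.98 and 278 CPM and ciliated-like cells 249, 202, 228 and 196 CPM, while classical monocyte-like cells held 77.7 to 123 CPM. In AT1-like cells of DMSO replicate 2, 1 cell held 111 of the 325 Nrg1 UMIs, and the level without these UMIs was 183 CPM, below all ciliated-like libraries. In UMIs per cell, ciliated-like cells were the highest for Nrg1. Of all Nrg1 UMIs 44.3% still lay in alveolar fibroblast-like cells, at a median of 48.6 CPM, and 23.5% in classical monocyte-like cells. Epithelium also held Npnt (AT2-like, median 130 CPM) and Bmp4 (AT2-like, 59.5 CPM).

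Among genes at 10 CPM or more in at least 1 of the 22 classes, and outside the class markers, the profile most like Fgf7 was that of Ogn (Pearson r = 0.97 over the class medians), followed by Gli2 (0.97) and Srpx2 (0.97). Srpx2 was also among the 3 most like Fgf10 (0.96). Hgf was most like Grk5 (0.86), Wnt2 like Gm29811 (0.92) and Ano5 (0.91), Wnt5a like Adcy2 (0.94), Npnt like Nol3 (0.91), Bmp4 like Fgfrl1 (0.89), Nrg1 like Trappc2l (0.80) and Rspo3 like Eda2r (0.90). These correlations describe 22 classes from the same 4 libraries.

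The AT2-like share of CD45-negative cells was 3.68% and 3.74% under BPTES, against 1.15% and 1.87% under DMSO. The groups did not overlap, at a mean of 3.71% ± 0.0439 against 1.51% ± 0.504 (SD, n = 2 each), a log2 difference of 1.29 (SE 0.30). The edgeR quasi-likelihood test over 16 classes gave an adjusted p of 0.0812. In this test the mesothelial-like share was lower at the same adjusted p (log2 difference -4.11, SE 1.06). Higher shares, at larger adjusted p, were seen in AT1-like (0.78, SE 0.47), smooth muscle-like (0.74, SE 0.33) and ciliated-like cells (0.51, SE 0.38). The remaining classes had smaller differences in both directions. Alveolar fibroblast-like cells were 23.4% and 25.4% against 27.7% and 23.8%, so there were 6.38 and 6.80 of them for each AT2-like cell under BPTES and 24.0 and 12.8 under DMSO. Fewer cells of a type and a shift in how well cells left the tissue cannot be told apart in such shares.

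**Figure D3:**
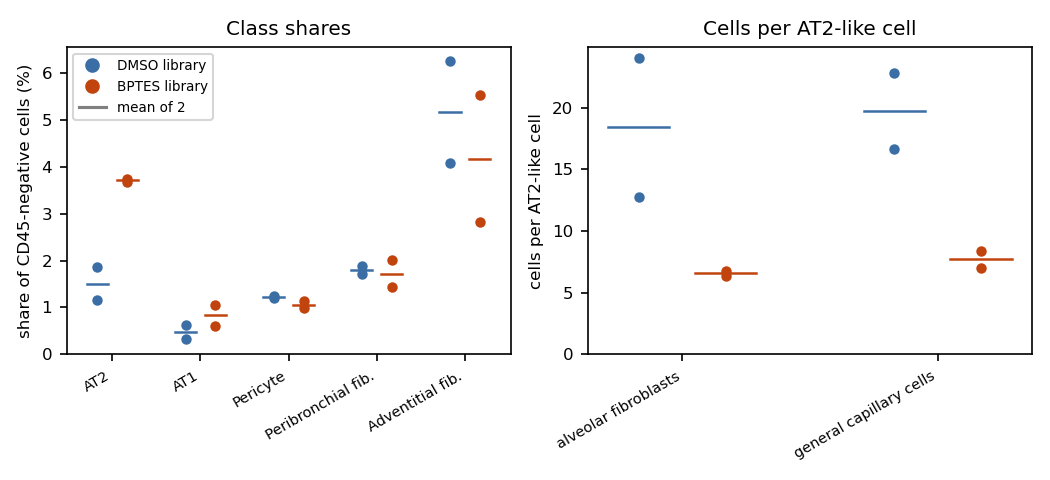
Left, share of CD45-negative cells (%) taken by 5 classes; right, number of alveolar fibroblast-like and general capillary endothelial-like cells for each AT2-like cell. Points are libraries and short lines are means of 2. The BPTES libraries have 6.38 and 6.80 alveolar fibroblast-like cells for each AT2-like cell, below both DMSO libraries.

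BPTES was then compared with DMSO in each class by edgeR on summed counts. Of 100 pairs of a member and a mesenchymal or endothelial class, 65 passed the count filter and 0 had an adjusted p under 0.05. The smallest was 0.0718. At an unadjusted p under 0.05 there were 22 pairs, 15 lower and 7 higher under BPTES, against a background of 13.7% of all gene tests in these classes. They include Wnt2 in arterial, Fgf7 and Fgf10 in venous and Npnt in aerocyte cells, where the levels were not above every B-like library. The groups did not overlap in 32 pairs, of which 24 were lower, where 45.3% of all gene tests had groups apart. DESeq2 on the same sums called 7 pairs, with 1.54% of all gene tests called. By edgeR, 0.406% of all genes were called in alveolar fibroblast-like and 0.48% in lymphatic endothelial-like cells, and 0% (0 genes) in each of the other 8 classes. With 3 broad compartments in place of classes, 0% of genes and 0 members were called.

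Bmp4 was lower in the BPTES libraries of each of the 3 endothelial classes that make it. In general capillary endothelial-like cells it was at 14.7, 12.4, 26.5 and 24.7 CPM, a log2 difference of -0.84 (SE 0.10, adjusted p = 0.102). In arterial cells the values were 36.0, 34.0, 77.5 and 53.1 CPM, a log2 difference of -0.83 (SE 0.16, adjusted p = 0.0875). In venous cells they were 44.4, 48.8, 65.0 and 63.2 CPM, a log2 difference of -0.42 (SE 0.10, adjusted p = 0.193). The groups were apart in all 3, and edgeR called none. The 3 classes come from the same 4 libraries, so they are not independent of each other. DESeq2 called Bmp4 in general capillary (adjusted p = 2.19e-06) and arterial cells (adjusted p = 0.0115). The arterial difference was -0.55 without DMSO replicate 1, -0.50 at clustering resolution 0.5 and -0.44 with a mitochondrial limit of 5%.

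The general capillary class held 3 clusters, and its make-up moved with treatment. Cluster 10, led by Inhbb and Esm1, was 16.8% and 27.9% of the class under BPTES and 7.77% and 12.7% under DMSO, and had low Bmp4 (9.39, 8.77, 8.61 and 16.8 CPM). Within cluster 0, the largest, Bmp4 was at 16, 14.3, 27.5 and 26.9 CPM, a log2 difference of -0.79 (SE 0.09, adjusted p = 0.0784). Within cluster 12, led by Ifit1 and Ifit3, it was -0.83 (SE 0.22, adjusted p = 0.14), and within cluster 10 it was -0.52 (SE 0.28, adjusted p = 0.521). Bmp4 in pericyte-like cells was at 156, 153, 164 and 167 CPM (log2 difference -0.10, SE 0.12). In alveolar fibroblast-like cells it was at 109.7, 100.2, 122 and 107 CPM (log2 difference -0.09, SE 0.08), where the groups overlapped.

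Hgf, an epithelial growth factor gene, was also lower in the BPTES libraries of these 3 classes without a call. Arterial cells held 40.7, 53, 73.9 and 68.1 CPM (log2 difference -0.54, SE 0.14, adjusted p = 0.13) and venous cells 27.7, 26.9, 42.0 and 35.5 CPM (log2 difference -0.46, SE 0.12, adjusted p = 0.219). General capillary cells held 72.0, 61.4, 96.6 and 75.7 CPM (log2 difference -0.29, SE 0.12, adjusted p = 0.233). The sizes depended on the setting. The arterial difference was -0.32 without BPTES replicate 1, -0.26 with a mitochondrial limit of 5% and -0.90 with doublets kept, and the venous one was -0.95 and -0.94 at clustering resolutions 0.5 and 2. The general capillary difference was -0.12 without DMSO replicate 1, -0.45 without DMSO replicate 2 and -0.16 with the 5% limit. The 3 general capillary clusters did not go one way. Within cluster 0 Hgf was at 81.9, 76.5, 107 and 82.2 CPM (log2 difference -0.19, SE 0.12) and within cluster 12 at 74.6 and 53 against 80.8 and 84.2 CPM (-0.32, SE 0.13, adjusted p = 0.322). Within cluster 10, where it was lower, it was at 35.2 and 34.4 CPM under BPTES and 28.6 and 30.8 CPM under DMSO (0.27, SE 0.12, adjusted p = 0.463). In alveolar fibroblast-like cells, which held most Hgf UMIs, it was at 227 and 273 CPM under BPTES and 308 and 290.2 CPM under DMSO, with the groups apart (log2 difference -0.21, SE 0.10, adjusted p = 0.264). In pericyte-like cells, where its level was highest, the log2 difference was 0.04 (SE 0.11), with overlapping groups.

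In lymphatic endothelial-like cells Rspo3 was at 172 and 166 CPM under BPTES and 240.0 and 225 CPM under DMSO. The groups were apart by a log2 difference of -0.44 (SE 0.10, adjusted p = 0.0718). Aerocyte endothelial-like cells did not show this, at 75.4, 62.5, 80.9 and 59.3 CPM (log2 difference 0.01, SE 0.14). Npnt in lymphatic cells was higher, at 133, 205, 103 and 110.2 CPM (log2 difference 0.68, SE 0.17, adjusted p = 0.0985), and the difference was 0.32 without BPTES replicate 2. The test of whether the BPTES difference of a member differed between general capillary and aerocyte endothelial-like cells called 0 members, with 0.163% of all genes called. The smallest adjusted p among them was 0.26, for Npnt, which was above every B-like library in neither class (medians 10.0 and 7.92 CPM). No other tested member was above the B-like libraries in both classes. Bmp4 and Hgf were at medians of 0.946 and 1.53 CPM in aerocytes, and Rspo3 at 0.237 CPM in general capillary cells. The test therefore cannot decide whether these differences are shared by the 2 classes.

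**Figure D4:**
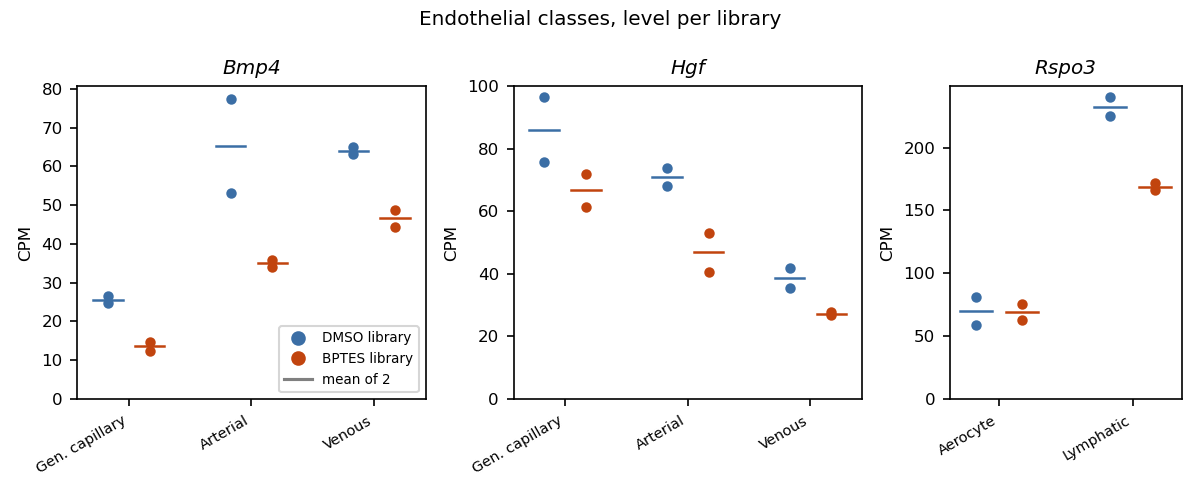
Level (CPM) of Bmp4, Hgf and Rspo3 in endothelial-like classes. Points are libraries and short lines are means of 2. Both BPTES libraries lie below both DMSO libraries for Bmp4 and Hgf in the 3 classes shown and for Rspo3 in lymphatic cells, with adjusted p between 0.0718 and 0.233, and aerocytes overlap.

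In alveolar fibroblast-like cells Wnt2 was at 124 and 117 CPM under BPTES and 174 and 154 CPM under DMSO, with the groups apart (log2 difference -0.40, SE 0.08, adjusted p = 0.073 by edgeR and 0.00133 by DESeq2). With doublets kept the difference was -0.24. Cluster 2, which is low in Wnt2, was 45.1% and 43.8% of the class under BPTES and 28.9% and 33.2% under DMSO. Within cluster 1 the log2 difference was -0.17 (SE 0.07, adjusted p = 0.283) and within cluster 2 it was -0.35 (SE 0.11, adjusted p = 0.226), both smaller than in the class as a whole. Wnt5a moved the other way in the class, at 16.3, 17.6, 12.9 and 13.6 CPM (log2 difference 0.39, SE 0.09, adjusted p = 0.0933 by edgeR and 0.0489 by DESeq2). Within cluster 2 its log2 difference was 0.07 (SE 0.10) and within cluster 1 it was 0.23 (SE 0.15).

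In alveolar fibroblast-like cells edgeR called 0 of the 9 tested members, and DESeq2 called only Wnt2 and Wnt5a. Npnt differed by a log2 value of 0.01 (SE 0.08), Fgf7 by 0.14 (SE 0.08), Fgf10 by -0.22 (SE 0.14), Nrg1 by 0.32 (SE 0.16) and Bmp4 by -0.09 (SE 0.08). Rspo3, low in this class, was at 2.98, 2.14, 2.53 and 0.914 CPM (log2 difference 0.63, SE 0.41, adjusted p = 0.402), with overlapping groups. The median log2 difference of the 9 tested members was 0.01, and of all genes -0.01. In peribronchial fibroblast-like cells Fgf7 was at 96.5 and 78.4 CPM under BPTES and 136 and 137 CPM under DMSO (log2 difference -0.63, SE 0.13, adjusted p = 0.227). Fgf10 there was at 114, 93.8, 72.0 and 83.0 CPM (log2 difference 0.44, SE 0.14, adjusted p = 0.351), so the 2 ligands of FGFR2 went opposite ways without a call. In BPTES replicate 1, 1 cell held 96 of the 301 Fgf10 UMIs of that class, and the level without them was 77.6 CPM, within the DMSO range. With doublets kept the Fgf10 difference was 0.21.

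Adventitial fibroblast-like cells lie around vessels and airways. In them Wnt5a was at 46.5 and 42.8 CPM under BPTES and 78.8 and 73.1 CPM under DMSO (log2 difference -0.74, SE 0.10, adjusted p = 0.103). Rspo3 was at 16.1, 15.3, 48.1 and 26.4 CPM (log2 difference -1.23, SE 0.29, adjusted p = 0.203). Nrg1 was higher, at 41.7, 44.2, 18.8 and 26.4 CPM (log2 difference 0.97, SE 0.16, adjusted p = 0.176), as was Npnt, at 133, 145, 61.8 and 110.5 CPM (log2 difference 0.73, SE 0.25, adjusted p = 0.279). Without DMSO replicate 1 the difference was 0.37 for Npnt and -0.71 for Rspo3, and without DMSO replicate 2 it was 1.19 for Npnt. DESeq2 called Wnt5a, Rspo3 and Nrg1 here.

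The BPTES difference was then compared between the alveolar and adventitial fibroblast-like classes within libraries. Wnt5a and Rspo3 were called, at a log2 difference between the classes of 1.14 (SE 0.13, adjusted p = 0.0294) and 1.87 (SE 0.23, adjusted p = 0.0361), with 0.237% of all genes called. Rspo3 in alveolar fibroblast-like cells was low, at 0.914 to 2.98 CPM. Mesothelial markers moved with these values. All 5 summed to 2.35 and 11.9 CPM in the adventitial class under BPTES and to 136 and 127 CPM under DMSO, and 4 of the 5 had a UMI there. Cells with a UMI of any of these markers were 5.57% and 9.08% of the class under BPTES and 21.9% and 20.7% under DMSO. Without those cells Wnt5a was at 47.2, 41.8, 61.0 and 60.8 CPM (log2 difference -0.42, SE 0.10) and Rspo3 at 16.4, 13.2, 33.7 and 18.0 CPM (log2 difference -0.79, SE 0.29). The differences between the classes were then 0.80 (adjusted p = 0.158) for Wnt5a and 1.41 (adjusted p = 0.162) for Rspo3, and neither was called. Calls were fewer over all genes as well, at 7 of 17079 against 41 of 17293 in the first fit. Mesothelial-like cells of DMSO replicates 1 and 2 held Wnt5a at 133 and 54.5 CPM and Rspo3 at 82.7 and 3.51 CPM. These levels were above the adventitial class in DMSO replicate 1 and below it in DMSO replicate 2. The part of mesothelial RNA in the Wnt5a and Rspo3 differences was not tested. With cluster 1 set against cluster 16 neither was called either, in a fit that called 7 of 16185 genes. The values were 0.89 (SE 0.17, adjusted p = 0.212) for Wnt5a and 2.16 (SE 0.31, adjusted p = 0.108) for Rspo3, the latter above its value between the classes.

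For Nrg1 and Npnt the make-up of the class moved as well. Cluster 25, rich in both, was 37.0% and 36.5% of adventitial fibroblast-like cells under BPTES and 21.8% and 31.9% under DMSO. Within cluster 25 the log2 difference was 0.46 (SE 0.15) for Nrg1 and 0.28 (SE 0.10) for Npnt, and within cluster 16 it was 0.94 (SE 0.32) and 0.51 (SE 0.35).

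**Figure D5:**
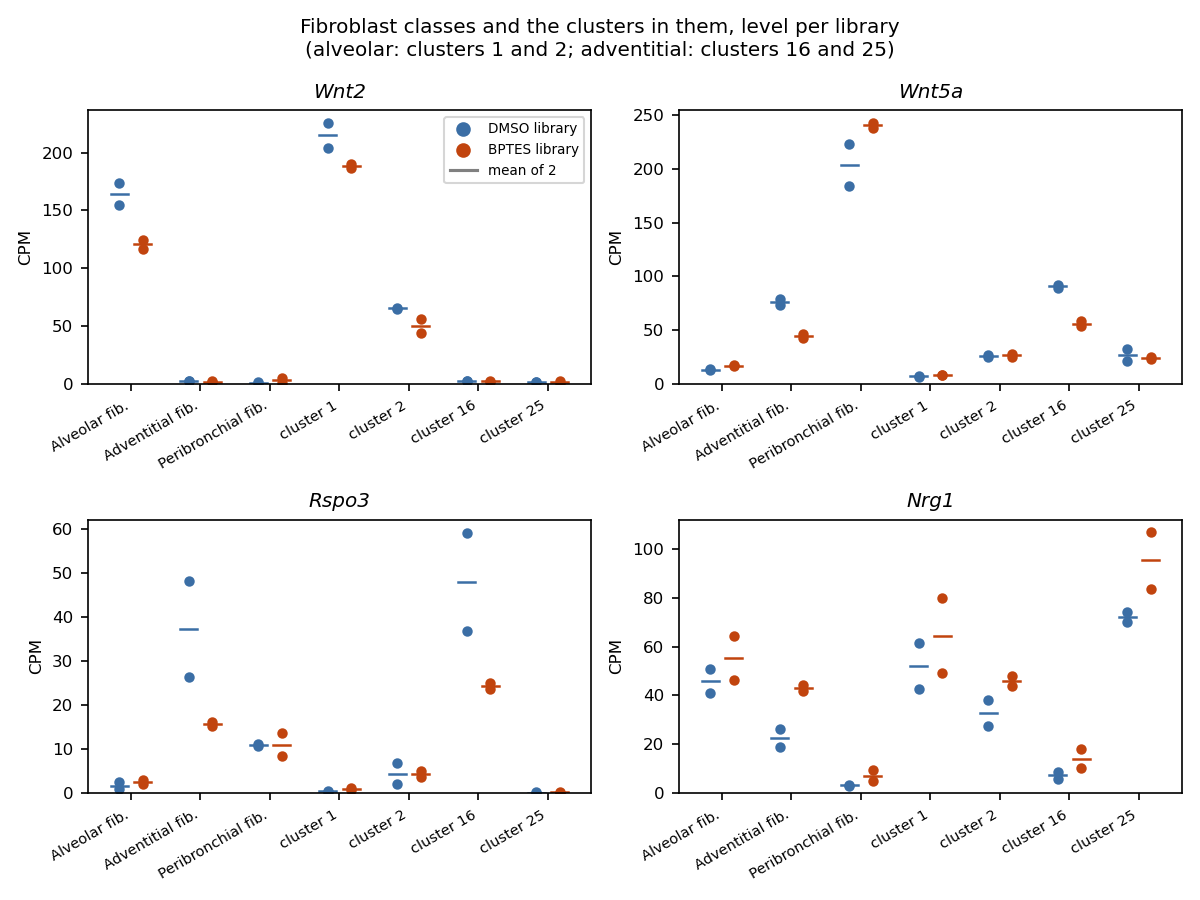
Level (CPM) of Wnt2, Wnt5a, Rspo3 and Nrg1 in 3 fibroblast-like classes and in the clusters that make up the alveolar (1, 2) and adventitial (16, 25) classes. Points are libraries and short lines are means of 2. In cluster 16, Wnt5a lies at 58.3 and 53.7 CPM under BPTES and at 91.9 and 89.4 CPM under DMSO.

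In smooth muscle-like cells 1 library stood apart. BPTES replicate 1 held Hgf at 168 CPM, against 28.5, 36.2 and 57.5 CPM in the others, and Wnt5a at 70.7 CPM against 6.96 to 12.1 CPM. Its summed pericyte markers were at 9730 CPM against 2122 to 4015 CPM, and their part in the result was not tested. In AT1-like cells Hgf at 204 CPM in BPTES replicate 2 came from a single cell, which held 202 of 218 UMIs. No member was called in AT2-like cells, where 0.836% of all genes were called, in AT1-like cells (0%) or in ciliated-like cells (0.00834%).

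The receptors and targets of these ligands were read in the epithelium from a list of 89 pathway genes. In AT2-like cells 64 of the 89 were tested and edgeR called 0. At an unadjusted p under 0.05 there were 14, beside 15.7% of all genes in this class, and the median log2 difference was -0.04 beside -0.002 over all genes. Fgfr2, the receptor of FGF7 and FGF10, was at 543, 470, 576 and 526 CPM, with overlapping groups (log2 difference -0.06, SE 0.09). Its target gene Etv5 was at 409, 425, 448 and 451 CPM, lower in both BPTES libraries (log2 difference -0.05, SE 0.07). Met, the HGF receptor, was at 254, 246, 209 and 235 CPM, higher in both BPTES libraries (log2 difference 0.22, SE 0.08, adjusted p = 0.253). Axin2, a target of β-catenin signalling, was at 13.9, 12.3, 20.7 and 16.3 CPM, lower in both (log2 difference -0.42, SE 0.14, adjusted p = 0.215). Id1, a target of BMP signalling, was at 19.2, 12.1, 16 and 21.2 CPM (log2 difference -0.23, SE 0.23). Bmpr1a differed by 0.13 (SE 0.08) and Bmpr2 by -0.14 (SE 0.07). Of the genes of integrin α8β1, Itga8 was at 3.32, 3.31, 11.1 and 3.85 CPM and Itgb1 at 227, 244, 226 and 224 CPM. In AT1-like cells Itga8 was at 4.48, 57.9, 3.2 and 91.6 CPM, from 7, 62, 1 and 107 UMIs. The groups overlapped (log2 difference -0.90, SE 1.17), so its level in these cells is not established.

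Frizzled genes in AT2-like cells went in both directions. Fzd1 was at 10.1, 10.7, 7.16 and 7.21 CPM (log2 difference 0.59, SE 0.16, adjusted p = 0.134) and Fzd8 at 10.5, 9.0, 6.78 and 6.72 CPM (log2 difference 0.58, SE 0.17, adjusted p = 0.163). Fzd6 was lower (log2 difference -0.43, SE 0.14, adjusted p = 0.185). Erbb3, which binds neuregulin, differed by -0.16 (SE 0.11), and Lgr4 by 0.41 (SE 0.21). In AT1-like cells 55 of the list were tested, edgeR called 0, and 2 had an unadjusted p under 0.05, beside 2.47% of all genes.

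Over all 22 classes edgeR called 2 pathway genes, where 0.132% of all gene tests were called. In each class 24 to 82 of the 89 listed genes were tested, so the 2 calls are near that share. They are described as single genes and are not a result about the list. Bmper, which encodes a secreted modifier of BMP signalling, fell in alveolar fibroblast-like cells, from 575 and 589 CPM under DMSO to 387 and 355 CPM under BPTES (log2 difference -0.61, SE 0.08, adjusted p = 0.0333). It was the only call among 78 tested genes of the list in that class. Within cluster 1 it was at 576, 513, 758 and 801 CPM (log2 difference -0.50, SE 0.08, adjusted p = 0.0878) and within cluster 2 at 190, 191, 189 and 208 CPM (log2 difference -0.02, SE 0.09). Cluster 2 was a larger part of the class under BPTES, and Bmper was called in neither cluster. In the class, the call was also lost with doublets kept (log2 difference -0.53, adjusted p = 0.116) and with another clustering seed (-0.51, adjusted p = 0.0571). It was lost without BPTES replicate 2 (-0.56, adjusted p = 0.0677) and without DMSO replicate 1 (-0.64, adjusted p = 0.108) as well. Bmp6, another BMP ligand gene, fell in interstitial macrophage-like cells, at 6.86, 6.24, 26.8 and 26.6 CPM (log2 difference -2.003, SE 0.18, adjusted p = 0.0123), in a class where 0.71% of all genes were called. This call was lost without DMSO replicate 2 (log2 difference -2.04, adjusted p = 0.0964), at clustering resolution 0.5 (log2 difference -1.13, adjusted p = 0.275) and with doublets kept (-1.15, adjusted p = 0.224).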

How the data were processed

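The authors deposited 1 filtered matrix of UMI counts per library. Counting used Cell Ranger 8.0.1 with mm10, per the submitters' processing notes. Barcodes were kept with at least 500 genes, 1000 UMIs and at most 10% mitochondrial UMIs, and the highest doublet scores (0.4% per 1000 barcodes) were removed. Clustering (2000 variable genes without the members and pathway genes, 40 components, 15 neighbours, Leiden in igraph 0.11.9, resolution 1) used no correction between libraries. Clusters took the class with the highest marker score, at least 1.5. UMI counts were summed per library and class with at least 20 cells in every library. edgeR 4.0.16 (filterByExpr, TMM, quasi-likelihood test, Benjamini-Hochberg adjustment over all genes of a class) tested BPTES against DMSO, with DESeq2 1.42.0 as an alternative. The calls use an adjusted p under 0.05. On simulated data with 200 genes changed 2-fold, 80% were recovered in alveolar fibroblast-like cells (16986 genes, 5 false calls), 71.5% in general capillary endothelial-like cells (15621 genes, 13 false calls) and 69% in AT2-like cells (13039 genes, 11 false calls). The simulated counts had only the average spread of genes at each level. Many member differences were smaller than 2-fold, and the simulation does not show how often such differences would be called. Differences between classes used library as a term. The named pathway genes were those called in any class, and fixed receptors and targets in AT2-like and AT1-like cells. The members and lists were chosen with earlier results of these data known.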

Additional observations from a re-analysis of the deposited data

Results flagged for a closer look

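The BPTES difference of 2 members differed between the alveolar and the adventitial fibroblast-like class by the test of that difference. The log2 difference was 0.39 in alveolar and -0.74 in adventitial cells for Wnt5a, and 0.63 and -1.23 for Rspo3. The alveolar Rspo3 groups overlapped, at 2.98, 2.14, 2.53 and 0.914 CPM (SE 0.41, adjusted p = 0.402 by edgeR), with DMSO replicate 2 the lowest, so the sign there is not established. The alveolar minus the adventitial value was 1.14 for Wnt5a (adjusted p = 0.0294) and 1.87 for Rspo3 (adjusted p = 0.0361) in the joint fit. The values without cells that held mesothelial markers were 0.80 and 1.41, and neither was called. In that fit 7 of 17079 genes were called.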

How the results depend on the processing

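Each group had 2 libraries. Leaving out 1 leaves a group with a lone library, assumed to vary like the other group, so those calls lend no support. No member was called per class by edgeR, nor with DESeq2 size factors, other resolutions or seeds, doublets kept, the 5% mitochondrial limit, the members among the clustering genes or single clusters. DESeq2 called 7, all in the 10 mesenchymal and endothelial classes, where it called 1.54% of all gene tests. Members were also called per class without a count filter, with a replicate block or without a library. Per compartment some were called by DESeq2, without a filter and with the replicate block. The shares of all genes called under these settings are not given, so the calls are not read as results about the members. Pathway calls were 2, and became 25 with DESeq2, 123 without a filter, 20 to 61 without a library, 1 at resolution 0.5 and with seed 2, and 4 at resolution 2 and the 5% limit. Bmp6 was lost at resolution 0.5, Bmper with seed 2 and with the replicate block (-0.61, adjusted p = 0.0622), and both with doublets kept, where the count was 2 from other genes or classes. The replicate block gave 8 member and 24 pathway calls, but same-numbered libraries did not deviate together (correlations of -0.124 to 0.081), so the numbers pair nothing. The crossed block, added after seeing the data, gave 9 and 35. For the changed pathway counts and for both blocks, the shares of all genes called are not given. These counts are therefore not read as results about the members or the pathway list. The alveolar against adventitial comparison called 0 members after leaving out cells with mesothelial markers or with clusters 1 and 16, both added after seeing the data. In these 2 fits 7 of 17079 and 7 of 16185 genes were called. Without a filter, or without a library, both this and the capillary against aerocyte comparison called members, and the shares of all genes called there are not given. The AT2-like log2 difference was 1.29, and was called at 1.33 with the replicate block, 1.31 over all cells, 1.29 with seed 1 and with the 5% limit, and ranged from 0.99 to 1.68 without a library, called only without DMSO replicate 2. The class with the highest level was the same for 6 of 10 members in UMIs per cell (not Fgf7, Hgf, Bmp4 and Nrg1) and 8 with doublets kept (not Hgf and Bmp4). Npnt in aerocytes reversed to -0.17 with doublets kept. Of 427 alternatives to single gene values, 354 stayed on the same side of the threshold, 58 became calls and 14 lost one. The causes of these changes were not tested.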

Other observations

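Hgf had its highest level outside the compared classes. In 16 mast or basophil-like cells, all from the other 3 libraries than BPTES replicate 1, it was at 1464, 2150 and 1088 CPM, with 317 UMIs in all. Of these, 1 cell held 57.6%, 42.1% and 72.7% in the 3 libraries. Mesothelial-like cells of DMSO replicate 1 held Wnt5a at 133 CPM and Rspo3 at 82.7 CPM, while those of DMSO replicate 2 held 54.5 and 3.51 CPM. In interstitial macrophage-like cells 1 cell held 43.8% of the Nrg1 UMIs of BPTES replicate 1. Of the 5 unnamed clusters, clusters 4 and 24 held Npnt at medians of 1807 and 1273 CPM, and the other 3 at 21.3 to 33.1 CPM.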
